A study of Drosophila melanogaster with 8 samples.

Results

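The genes described here are the 9 listed sperm tail genes of the *Mst84D*, *Mst87F*, *Mst98C* and *don juan* groups, matched by FlyBase symbol to their gene identifiers. All 9 of 9 were found among the 14256 genes of the count table, all lie on chromosome 3R, and all 9 passed the filter on low counts. They are *Mst84Da*, *Mst84Db*, *Mst84Dc*, *Mst84Dd*, *Mst87F*, *Mst98Ca*, *Mst98Cb*, *dj* (*don juan*) and *djl* (*don juan like*). Whole testes of adult males aged 5 days were read by RNA-seq in 4 libraries, each made from 1 pair of testes. The control group carries the *Tj-Gal4* driver (2 libraries), and the other group, called *Tj>E(Pc) shRNA* (2 libraries), has the genotype *Tj-Gal4/+; UAS-E(Pc) shRNA/+*, so the driver is shared by both. *Tj-Gal4* acts in the somatic cyst cells that enclose germ cells and, as the authors state, in the other somatic gonadal cells, hub cells included. The 9 genes are germline genes. The comparison asks how the mRNA of the 9 genes in the whole testis differs where *E(Pc)*, a chromatin regulator gene, is targeted in these somatic cells. In RNA of whole testes, fewer cells of a type and less RNA per cell cannot be told apart.

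Most genes of the late sperm are transcribed in primary spermatocytes, before the meiotic divisions, and their mRNA is stored for days until the spermatids elongate. The genes of the *Mst(3)CGP* family, to which the *Mst84D*, *Mst87F* and *Mst98C* genes belong, are textbook cases of this delay. They encode small proteins rich in repeats of cysteine, glycine and proline that are built into the sperm tail. *dj* encodes a basic protein of the elongated spermatid and sperm tail that is widely used to mark the tail and its mitochondrial derivatives, and *djl* is its relative. In the RefSeq gene order of fly genome Release 6, *Mst84Dd*, *Mst84Dc*, *Mst84Db* and *Mst84Da* stand next to each other, as do *dj* and *djl*, and *Mst98Ca* and *Mst98Cb*.

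The control libraries summed to 3307767 (*Tj-Gal4* 1) and 4273908 (*Tj-Gal4* 2) counts, and those labelled *Tj>E(Pc) shRNA* to 6251181 (1) and 3691459 (2), a range of 1.89-fold. The targeted gene, *E(Pc)*, held 854 and 1187 counts in the controls, against 2685 and 1235 in *Tj>E(Pc) shRNA*. Its level in whole testes thus did not fall where the labels name the knockdown, and every direction below rests on the labels. The log2 fold change was 0.44 with a standard error of 0.18 (adjusted p = 0.083 in the quasi-likelihood test of edgeR). The authors reported E(Pc) protein in germ cells as well as cyst cells, and its reduction in cyst cells on knockdown. RNA of whole testes does not separate these cells. Counts per base, meaning the count of a gene divided by the length of its merged exons, reached at most 0.941, 0.961, 0.965 and 0.924 over all genes in the same order of libraries. No gene of any library thus held 1 count per base, and the highest value hardly moved with depth.

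Of the 9 genes, 8 lay in the upper part of that range in every library, and *Mst84Da* lay near its middle. Their counts per base ran from 0.465 to 0.806 in *Tj-Gal4* 1, from 0.485 to 0.860 in *Tj-Gal4* 2, from 0.485 to 0.873 in *Tj>E(Pc) shRNA* 1 and from 0.448 to 0.763 in *Tj>E(Pc) shRNA* 2. The median over all genes with at least 1 read was 0.0533, 0.0755, 0.140 and 0.0774 in these libraries. All but *Mst84Da* stood above 94.6% of the detected genes of every library, and *djl* and *Mst84Db* above 98.4%. The ranges of the genotypes overlapped in all 9 genes, because *Tj>E(Pc) shRNA* 2 was the lowest library of every gene while *Tj>E(Pc) shRNA* 1 was near or above both controls.

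**Figure D1:**
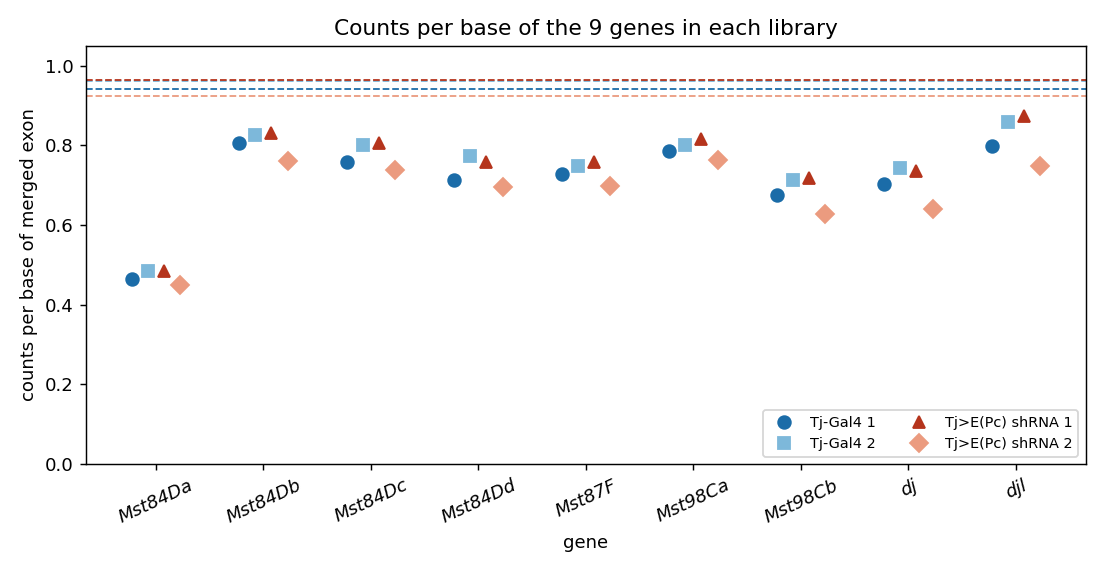
Counts per base of merged exon (y axis) of the 9 genes (x axis) in each of the 4 libraries, 1 symbol per library. Dashed lines mark the highest value over all genes in the library of that colour, between 0.924 and 0.965. *Mst84Da* sits near 0.47 and the other 8 genes between 0.627 and 0.873.

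In the *Mst84D* cluster, *Mst84Db* (FBgn0004173, 417 bp) held 336 and 345 counts in the controls (replicates 1 and 2, as throughout) and 347 and 317 in *Tj>E(Pc) shRNA*. *Mst84Dc* (FBgn0004174, 364 bp) held 276 and 292, and 293 and 269 counts, and *Mst84Dd* (FBgn0004175, 427 bp) held 305 and 330, and 324 and 297 counts. These are steady counts in libraries whose totals differ by 1.89-fold, with a highest to lowest ratio of 1.09 in *Mst84Db*, 1.09 in *Mst84Dc* and 1.11 in *Mst84Dd*. *Mst84Da* (FBgn0004172, 359 bp) was the sparsest member, with 167 and 174, and 174 and 161 counts. Its mean was 0.475 ± 0.0138 counts per base in *Tj-Gal4* and 0.467 ± 0.0256 in *Tj>E(Pc) shRNA* (SD, n = 2 each), so the genotypes differed by less than their replicates did.

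*Mst87F* (FBgn0002862, 470 bp), the member on which the delay of translation was studied in most detail, held 342 and 352 counts in *Tj-Gal4*, and 357 and 328 in *Tj>E(Pc) shRNA*. This is 0.738 ± 0.015 and 0.729 ± 0.0436 counts per base (SD, n = 2 each). The *Mst98C* pair encodes larger proteins of the same family. *Mst98Ca* (FBgn0002865, 1319 bp) held 1036 and 1056, and 1078 and 1006 counts, the narrowest range of the 9 genes (highest to lowest ratio 1.07). *Mst98Cb* (FBgn0004171, 1066 bp) held 720 and 761, and 765 and 668 counts, with a ratio of 1.15. The neighbouring genes of this pair therefore differed in how far *Tj>E(Pc) shRNA* 2 lay below the other libraries, and both ranges were narrow beside the range of the totals.

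The *don juan* genes varied most. *dj* (FBgn0019828, 1210 bp) held 852 and 900 counts in the controls, and 890 and 774 in *Tj>E(Pc) shRNA*. *djl* (FBgn0037463, 1098 bp) held 878 and 944, and 959 and 821 counts. Their highest to lowest ratios were 1.16 and 1.17, and *djl* was the most densely covered member on average, at 0.820 counts per base. Counts of genes of a family can be lowered where reads fit more than 1 place, since the authors kept only reads with a single alignment site. *Mst84Da* overlaps *MstProx*, and *Mst87F* overlaps the non-coding RNA gene *lncRNA:CR43300*, in the RefSeq annotation of Release 6, so their counts are also uncertain to the extent that reads were shared.

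Raw means of the 2 genotypes were nearly equal. They were lower in *Tj>E(Pc) shRNA* by 0.382% (*Mst98Ca*) to 5.02% (*dj*), less than the SD of the *Tj>E(Pc) shRNA* replicates in each gene. Summed over the 9 genes, the counts were 4912, 5154, 5187 and 4641 in the same order of libraries, a range of 1.12-fold. As a share of the library they were 0.148% (Wilson 95% interval 0.144 to 0.153) and 0.121% (0.117 to 0.124) in *Tj-Gal4*, and 0.0830% (0.0807 to 0.0853) and 0.126% (0.122 to 0.129) in *Tj>E(Pc) shRNA*. The intervals cover counting error only, since reads that carry no molecular identifier may repeat a molecule. Over the 4 libraries the share fell in the order of rising totals, and the lowest share belonged to the deepest library.

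**Figure D2:**
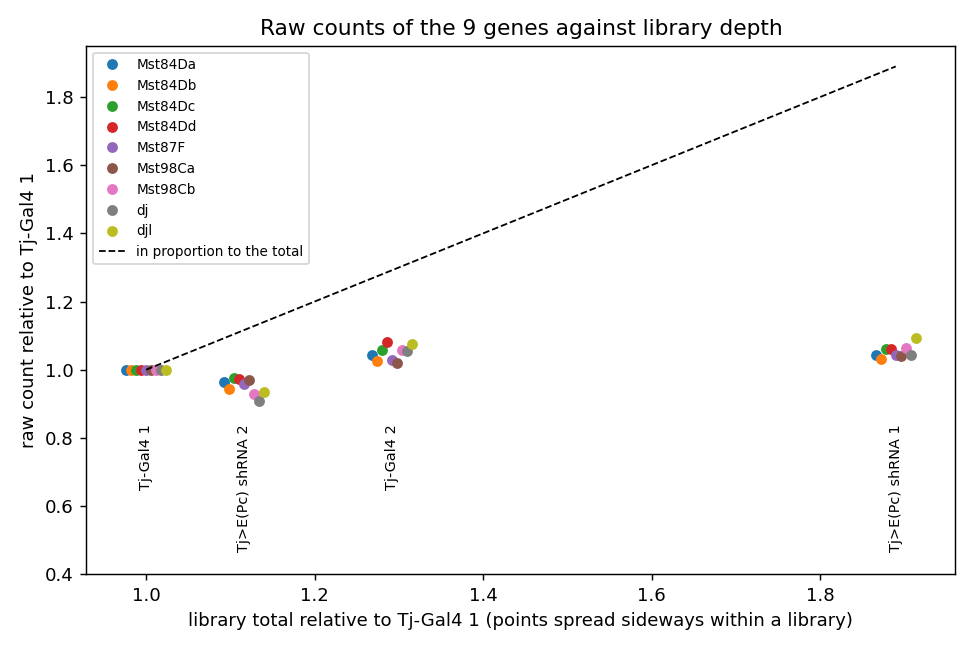
Raw count of each of the 9 genes relative to its count in *Tj-Gal4* 1 (y axis) against the library total relative to *Tj-Gal4* 1 (x axis). The dashed line shows counts in proportion to the total, which reaches 1.89 in *Tj>E(Pc) shRNA* 1, where the points stay near 1.

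Replicates of a genotype show the same without any comparison of genotypes. Between the *Tj-Gal4* libraries the totals differed by 0.37 on the log2 scale, the raw counts of the median gene by 0.47 (10345 genes with at least 10 counts in every library), and those of the 9 genes by a median of 0.079. Between the *Tj>E(Pc) shRNA* libraries the totals differed by 0.76, the median gene by 0.89 and the 9 genes by a median of 0.13. A highest to lowest ratio over the 4 libraries no larger than that of *djl* was found in 138 of the 10345 genes (1.33%), and the median ratio of these 10345 genes was 2.52. By density, the median ratio was 3.06 in the 834 genes under 0.02 counts per base and 3.37 in the 1802 genes between 0.05 and 0.1, and above that it fell from bin to bin to 1.21 in the 360 genes over 0.7.

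Set beside genes of like density, most members lay well within the range of the others, and *Mst84Da* and *Mst98Cb* lay near its low end. Of the 353 other genes over 0.7 counts per base, 28 had a ratio at or below that of *Mst98Ca* (7.93%) and 109 at or below that of *djl* (30.9%). For *Mst84Da*, at 0.471 counts per base, the ratio of 1.08 was matched or undercut by 2 of the 633 other genes between 0.4 and 0.5 counts per base, whose median was 1.68. For *Mst98Cb*, at 0.683, the ratio of 1.15 was matched or undercut by 7 of 405 other genes (1.73%), whose median was 1.36. The counts of these 2 members were therefore as steady as those of denser genes. How much of their length could take a uniquely aligned read was not tested.

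**Figure D3:**
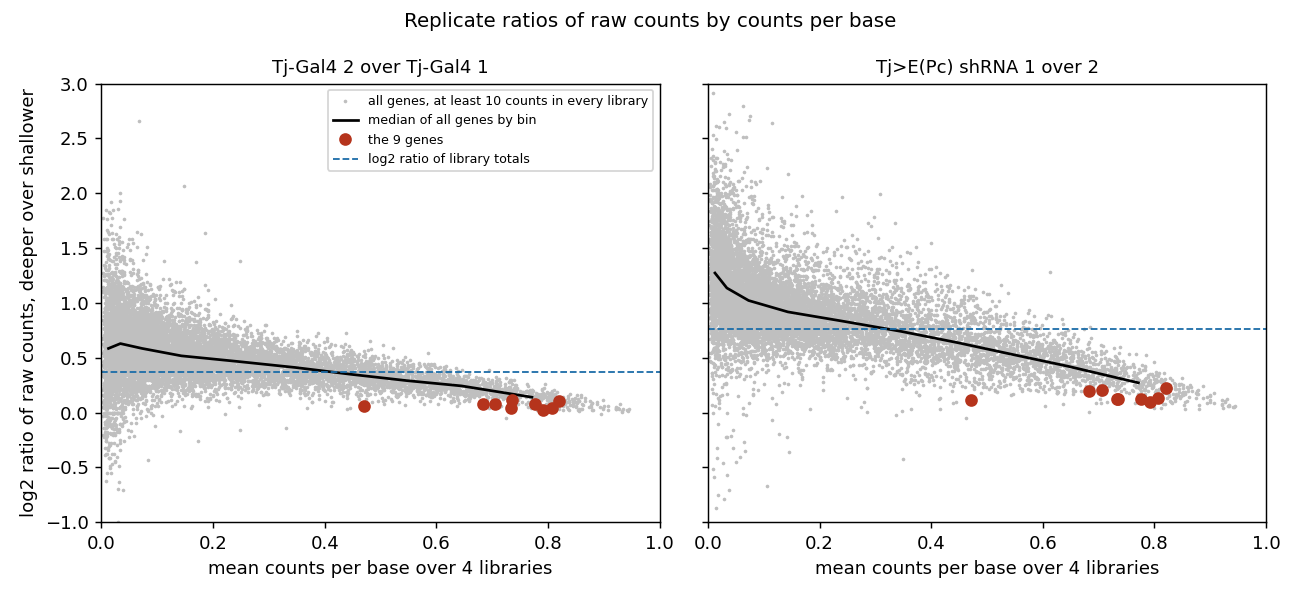
Log2 ratio of raw counts between the deeper and the shallower replicate of each genotype (y axis) against mean counts per base (x axis), for all genes with at least 10 counts in every library (grey), the median of all genes by bin (black line) and the 9 genes (red). The dashed line is the log2 ratio of the library totals, 0.37 in *Tj-Gal4* and 0.76 in *Tj>E(Pc) shRNA*, and all 9 genes lie below it in both panels.

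Scaled to the libraries, the same counts look different. In cRPKM, the authors' normalized reads per kilobase of merged transcript, *Mst87F* had 218 and 162 in *Tj-Gal4* 1 and 2, and 105 and 180 in *Tj>E(Pc) shRNA* 1 and 2. *dj* had 211 and 161, and 102 and 165, and *Mst84Da* had 139 and 105, and 65.8 and 116. In all 9 genes *Tj-Gal4* 1 was highest, followed by *Tj>E(Pc) shRNA* 2, *Tj-Gal4* 2 and *Tj>E(Pc) shRNA* 1, which is the order of library totals from the smallest to the largest. The genotypes thus overlapped in every member. Mean cRPKM was 0.717 (*dj*) to 0.758 (*Mst98Ca*) of the control mean, and a two-sided exact permutation test of log2(cRPKM + 1) gave p = 0.667 for each gene. The smallest p that this exact test can give with 2 libraries of each genotype is 0.333.

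**Figure D4:**
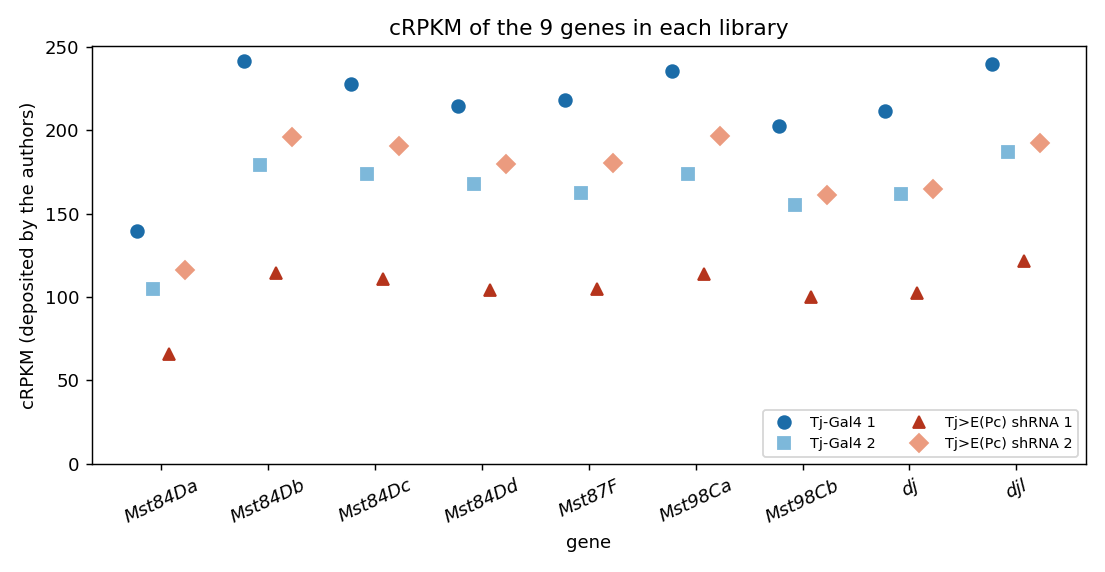
cRPKM as deposited (y axis) of the 9 genes (x axis) in the 4 libraries, 1 symbol per library. *Tj-Gal4* 1 is highest and *Tj>E(Pc) shRNA* 1 lowest in every gene, and *Tj>E(Pc) shRNA* 2 lies between the controls.

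None of the 9 genes passed edgeR's quasi-likelihood test in either direction. Among all 11163 genes tested, 11.4% were called lower and 22.5% higher at an adjusted p under 0.05. At an unadjusted p under 0.05 the same test had 0 of the 9 lower beside 19.4% of all genes, and the number varied with the setting. It was 1 of 9 in DESeq2 (17.4% of all genes) and 1 of 9 in edgeR's exact test (20.9%), 3 of 9 with library size alone (16.6%) and 4 of 9 with the replicate block (15.4%). With upper-quartile factors it was 7 of 9 (22.3%), and without a filter on low counts 8 of 9 (18.5%). After adjustment, none of these settings called any of the 9. The fitted log2 fold changes, on counts scaled by edgeR's TMM factors, lay between -0.48 (*dj*) and -0.40 (*Mst98Ca*), with a median of -0.44, beside a median of 0.0017 over all genes tested. Their spread of 0.08 between genes was smaller than the standard error of any of them.

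*dj* had 273 and 209 CPM (counts relative to the scaled library size) in *Tj-Gal4* and 134 and 212 CPM in *Tj>E(Pc) shRNA*, a log2 fold change of -0.48 with a 95% interval of -0.98 to 0.018 (adjusted p = 0.116 in the quasi-likelihood fit of edgeR). *Mst98Cb* had 230 and 177, and 115 and 183 CPM, with an interval of -0.95 to 0.037 around -0.46. *Mst98Ca* had 332 and 245, and 163 and 275 CPM, and its interval of -0.96 to 0.15 around -0.40 was the widest (adjusted p = 0.218 from the same edgeR test). These intervals reach from about no change to a fall of close to 2-fold, so neither was resolved with 2 libraries of each genotype.

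The size of the difference depended on which library was present. Without *Tj>E(Pc) shRNA* replicate 1, the deepest library, the median log2 fold change of the 9 genes was -0.083 and 0 were called, beside 15.2% of all genes tested called lower. Without *Tj>E(Pc) shRNA* replicate 2 it was -0.82 and all 9 were called lower, beside 23% of all genes. Without *Tj-Gal4* replicate 1 it was -0.25, with 0 called beside 4.11% of all genes, and without *Tj-Gal4* replicate 2 it was -0.62, with *Mst84Da* and *Mst84Db* called, beside 3.95% of all genes. The values were negative for all 9 genes in each of these fits. Each leaves 1 genotype with a single library, which is assumed to vary like the pair that supplies the spread, so these calls show how far the result rests on 1 library and are no test of genotype.

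Libraries of similar depth can be set side by side, as a description of single libraries. *Tj>E(Pc) shRNA* 2 held 1.12 times the total of *Tj-Gal4* 1, yet its raw count was lower in 9 of 9 genes, as in *dj* (774 against 852) and *djl* (821 against 878). The same held for 37.0% of all genes tested and for 94.1% of the 353 other genes over 0.7 counts per base. In the deeper pair, *Tj>E(Pc) shRNA* 1 held 1.46 times the total of *Tj-Gal4* 2, and its raw count was equal or higher in 7 of the 9 genes, the exceptions being *Mst84Dd* and *dj*. The lower count in *Tj>E(Pc) shRNA* 2 than in *Tj-Gal4* 1 was thus shared by most densely covered genes. For the deeper pair, the share over other genes was not counted. The median log2 fold change of those 353 genes was -0.42, and 2.83% of them were called lower.

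An alternative takes a count to be a base at which a read was seen, and converts the count to the number of reads expected to fill that many bases. On this scale *djl* had 1765 and 2157 reads in *Tj-Gal4* and 2269 and 1512 in *Tj>E(Pc) shRNA*, and *dj* had 1474 and 1648, and 1609 and 1235. Log2 fold changes were then -0.59 to -0.44, with 3 of 9 genes (*dj*, *djl* and *Mst98Cb*) called lower beside 20% of all genes tested. The median of the 9 was -0.51, beside -0.48 for the 353 other genes over 0.7 counts per base. With 49 bases taken off each length, since a read of 50 bases cannot start there, 6 of 9 were called lower (*Mst84Db*, *Mst84Dc*, *Mst84Dd*, *Mst98Cb*, *dj* and *djl*) beside 20.7% of all genes. Whether reads at the same position were collapsed in these libraries is not given in the sources used here, so the conversion is an assumption. A further alternative removes the trend of replicate ratios on depth at each density. It gave log2 fold changes of -0.32 (*Mst84Da*) to -0.15 (*Mst98Ca*), with *dj* alone called lower beside 18.2% of all genes. The median of the 9 was -0.18 here, beside -0.16 for the same 353 genes. Calls among those 353 genes were not counted under these alternatives.

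Fitted values were negative for all 9 genes under every alternative tried, and the call was not. A block that pairs the shallower libraries with each other and the deeper libraries with each other (*Tj-Gal4* 1 with *Tj>E(Pc) shRNA* 2, and *Tj-Gal4* 2 with *Tj>E(Pc) shRNA* 1) called all 9 lower, beside 27% of all genes tested. Nothing in the labels says that libraries were paired in this way.

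**Figure D5:**
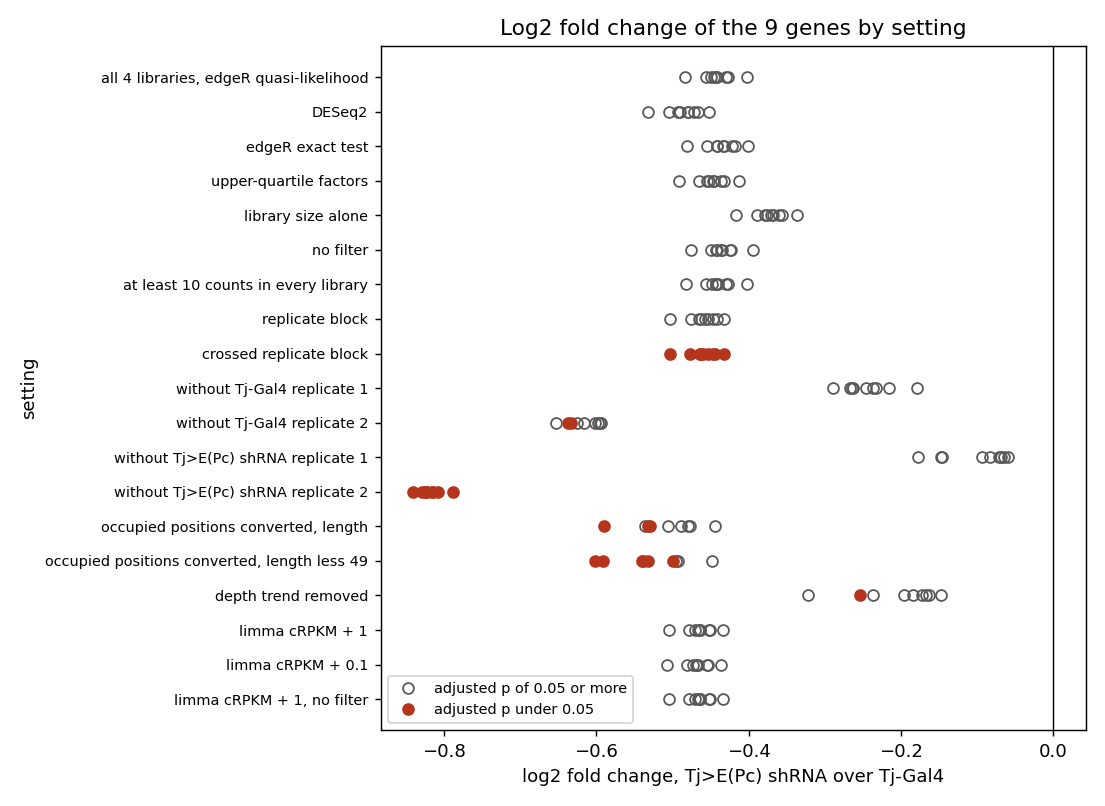
Log2 fold change of *Tj>E(Pc) shRNA* over *Tj-Gal4* (x axis) of the 9 genes under each setting (y axis), with filled symbols for an adjusted p under 0.05. Values stay below 0 throughout, from -0.060 for *Mst98Ca* without *Tj>E(Pc) shRNA* replicate 1 to -0.84 for *dj* without *Tj>E(Pc) shRNA* replicate 2.

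The genes whose profile over the 4 libraries lay nearest to the median profile of the 9, by Euclidean distance in log2 counts per base, were *CG14926*, *Jhbp5*, *Dpy-30L2*, *CG8042* and *CG31709*, at distances of 0.046 to 0.091. *CG14926* had 0.721 and 0.751 counts per base in *Tj-Gal4*, and 0.760 and 0.695 in *Tj>E(Pc) shRNA*. Their log2 fold changes were -0.42 to -0.40, and none was called. The 5 were picked for a like profile in the same libraries, so like fold changes follow from the choice. All 5 lay over 0.7 counts per base on average.

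Other genes of the late male germline were read from lists, whose counts stand beside 11.4% called lower and 22.5% called higher over all genes tested. Of the 9 other *Mst*-named or late translated genes, 2 were called lower and 1 higher, with a median log2 fold change of -0.48: *Mst36Fa* (-0.58, 0.457 counts per base) and *Mst89B* (-0.50, 0.616) fell, and *Mst85C* rose (1.23), from 23 and 35 counts to 130 and 61. Of the 7 genes for sperm chromatin, which replace histones in the condensing sperm nucleus, 4 were called lower, *tHMG2* (-0.65), *tHMG1* (-0.61), *ProtA* (-0.60) and *ProtB* (-0.53), with a median of -0.53. Of 17 comet and cup genes, which are transcribed after meiosis, 3 were called lower, with a median of -0.43. *sunz* fell most, from 390 and 510 counts in *Tj-Gal4* to 449 and 233 in *Tj>E(Pc) shRNA*, which is 125 and 118 CPM against 67.7 and 63.7 CPM (log2 fold change -0.88, standard error 0.13). It was covered at 0.438 counts per base, and the other called genes were *d-cup* (-0.58, 0.365) and *sowi* (-0.51, 0.672).

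Sperm tail genes outside the *Mst* and *don juan* groups were read in the same way. Of 16 axoneme genes, 13 were matched by name and tested, with a median of -0.41. *Dhc16F*, *kl-3* and *kl-5* were not matched, which does not show that they are absent. Of the 13, 3 were called lower, beside 11.4% of all genes tested. They were the Y-linked fertility gene *ORY* (-1.22, 0.029 counts per base) and the axoneme genes *hmw* (-0.59, 0.638) and *lobo* (-0.51, 0.401). *ORY* held few counts, 37 and 79 in *Tj-Gal4*, and 53 and 17 in *Tj>E(Pc) shRNA*. *betaTub85D*, the tubulin of the sperm axoneme, was covered at 0.907 counts per base with 1668 and 1695, and 1712 and 1607 counts, and was not called (-0.41, standard error 0.27). Medians of these 4 lists lay between -0.53 and -0.41, and that of the 9 genes fell inside this range. So did the median of the 353 other genes over 0.7 counts per base, whatever their kind (-0.42). Median counts per base were 0.616 in the other *Mst*-named or late translated genes, 0.704 in sperm chromatin, 0.620 in comet and cup and 0.326 in axoneme genes. In the same order of lists, median log2 fold changes with occupied positions converted were -0.51, -0.60, -0.47 and -0.42 (-0.51 for the 9 genes). With the depth trend removed they were -0.23, -0.35, -0.23 and -0.31 (-0.18 for the 9 genes). The part of coverage in the list medians was not tested. Differences between the lists were not tested.

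Transcription of late germline genes in spermatocytes depends on the testis TAFs and the testis meiotic arrest complex. Of 14 listed genes of this program, all tested, 6 were called higher and 0 lower, beside 22.5% of all genes called higher and 11.4% lower. The median was 0.27 on the log2 scale, and 2 of the 14 had negative values, *mip40* (-0.21) and *mia* (-0.19). *comr* rose by 0.71, *tomb* by 0.67, *can* by 0.62 and *kmg* by 0.61 on the log2 scale. *can* had 99.6 and 107 CPM in *Tj-Gal4*, and 161 and 156 CPM in *Tj>E(Pc) shRNA*, without overlap, at 0.204 counts per base. Of 5 translation regulators of the testis, 3 were matched and none was called, with log2 fold changes of -0.42 for *bol* and -0.35 for *eIF4G2*, a translation initiation factor needed in the male germline.

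Of 8 listed markers of early germ cells, 6 were matched by name and tested. *nos* and *vas* were not matched, although *nos* stands among the genes tested as *nanos* (log2 fold change 1.47, called higher) and was not counted here. Of the 6, 4 were called higher (*ovo*, *zpg*, *bam* and *aub*) and 0 lower, beside 22.5% of all genes called higher. The others, *bgcn* (log2 fold change 0.058) and *stet* (-0.22), were not called, and *bgcn* made up 258 and 226 CPM of the sum in the controls and 273 and 230 CPM in *Tj>E(Pc) shRNA*. The summed level of the 6 was 351 and 318 CPM in *Tj-Gal4* and 527 and 525 CPM in *Tj>E(Pc) shRNA*, and none was at 0 in any library. As for other cell types, summed cyst lineage markers (5 of 5 tested, 1 called each way) were 229 to 250 CPM in *Tj-Gal4* and 209 to 271 CPM in *Tj>E(Pc) shRNA*. Among them *zfh1* was called higher (log2 fold change 0.65) and *so* lower (-1.38). *aop* (0.36), *tj* (0.21) and *eya* (0.0081) were not called. Summed muscle sheath markers (4 of 6 tested, 1 called lower) were 514 to 559 and 456 to 545 CPM. Hub markers (3 of 3 tested, 2 called lower) were 216 to 239 and 148 to 166 CPM. Hemocyte markers (3 of 3 tested, 1 called higher) were 89.6 to 125 and 189 to 294 CPM. The hemocyte gene called was *Pxn* (log2 fold change 1.87). It had 39.7 and 49.2 CPM in *Tj-Gal4*, and 179 and 147 CPM in *Tj>E(Pc) shRNA*. *Hml* (0.42) and *NimC1* (-0.44) were not called. Over all genes tested, 11.4% were called lower. The accessory gland genes *Acp26Aa*, *SP* and *Acp62F* had at most 4 counts in a library. So did the fat body genes *Yp1*, *Yp2* and *Fbp1* and the ejaculatory bulb gene *EbpII*. Others on these lists were detected: *Acp36DE* held 139 to 381 counts, *Ebp* 15 to 76, *EbpIII* 154 to 430 and *Lsp2* 30 to 127. *Ebp* was called lower (log2 fold change -1.67), *EbpIII* (0.70) and *Lsp2* (0.98) were called higher, and *Acp36DE* (0.21) was not called. The part of these cell types in the values of the 9 genes was not tested.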

How the data were processed

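RNA-seq libraries were read with 50-nt single-end reads on a HiSeq2500, 2 per genotype. The authors aligned reads with Bowtie 0.12.7 to dm3, keeping up to 2 mismatches and 1 site, and deposited raw counts per gene over merged exons, without normalization. Reads over overlapping genes were to be split, yet all deposited values are whole. The authors also deposited RPKM values (cRPKM), computed from edgeR pseudo-counts, length and a common library size. The strand used in counting and the removal of duplicate reads are not given in the sources used here. ChIP-seq samples of the series are not used here.

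Symbols came from a FlyBase table (13564 of 14256 genes) and, for list genes, from RefSeq synonyms; 0 sample columns were left unused. Genes were fitted together in edgeR 4.0.16 (R 4.3.3): filterByExpr, TMM, quasi-likelihood F test, Benjamini-Hochberg adjustment, calls at 0.05. A standard error is the log2 fold change over the square root of F. Alternatives used DESeq2 1.42.0, limma 3.58.1 on log2(cRPKM + 1) and log2(cRPKM + 0.1) (mean cRPKM of at least 1, or no minimum), other scalings, filters, blocks, each library left out, occupied positions converted as -L ln(1 - n/L) (n/L at most 0.98) and a loess depth trend (span 0.3). Most kinds of fit were tested on simulated counts, the alternative filters excepted. The changed genes there were drawn from those less densely covered than every member but *Mst84Da*. Only the conversion of occupied positions was run on capped counts. The simulation thus did not cover the dense range in which most members lie. P-values of the fits weigh a difference against the spread between these libraries, which is estimated partly from other genes.

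Members, lists and alternatives were chosen with earlier results of these data known. Named are all 9 members, the 5 nearest profiles and, per list, up to 4 called genes of largest change or, with none called, up to 2; *Mst84D* neighbours, *betaTub85D* and marker genes were named after their values were seen.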

Additional observations from a re-analysis of the deposited data

How the results depend on the processing

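The median log2 fold change of the 9 genes was negative under every setting, and its size was not stable. Leaving out 1 library at a time, it ranged from -0.82 to -0.083 and the number called lower from 0 to 9. The number called lower was 0 with all libraries, and also under DESeq2, the exact test, upper-quartile factors, library size alone, both other filters and limma on cRPKM. It was 3 with occupied positions converted, 6 with 49 bases taken off the length, and 1 (*dj*) with the depth trend removed. None was called higher under any setting. Same-numbered libraries are not known to be paired: deviations of replicates from their genotype correlated at -0.25 over genes, the replicate block called 0 with a median of -0.46, and the crossed replicate block called 9. Over single genes and alternatives, 132 values kept their direction and side of the threshold, 30 became called, and 0 reversed. All are refits of the same libraries, so they are not independent of each other. With 2 libraries of each genotype, 95% intervals spanned about 1 log2 unit, from -0.98 to 0.018 in *dj*, and no gene exceeded 0.965 counts per base at any depth.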

Other observations

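Genes that stand next to the 9 in Release 6, looked up after the values of the 9 were seen, were of both kinds. *CG17944*, beside *Mst84Dd*, held 498 and 564 counts in *Tj-Gal4* and 590 and 475 in *Tj>E(Pc) shRNA* (0.715 counts per base, log2 fold change -0.42, standard error 0.19). *CG1979*, beside *dj*, was covered at 0.827 counts per base (log2 fold change -0.43), *Mst84B*, beside *djl*, at 0.782 (-0.39), and *UQCR-14L*, beside *Mst98Cb*, at 0.60 (-0.38), and none was called. *MstProx*, which overlaps *Mst84Da*, held 125 and 160, and 190 and 128 counts over 3262 bp (0.0462 counts per base). *CG34437*, beside *Mst98Ca*, held 4 to 21 counts, *lncRNA:CR43300*, which overlaps *Mst87F*, 4 to 16, and *lncRNA:CR43642*, beside *Mst87F*, 0 to 2.

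Within the *Mst84D* cluster, *Mst84Da* had 169 counts on average and *Mst84Db*, beside it, 336, although their lengths are 359 and 417 bp. Variance over mean of the 4 raw counts was 0.233 to 0.897 in 6 of the 9 genes, 2.80 in *Mst98Cb*, 3.83 in *dj* and 4.49 in *djl*.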
